A study of Mus musculus with 16 samples.

Results

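The ESCRT, retromer and endosome tethering genes encode the machinery that sorts membrane proteins within endosomes and brings endosomes together for fusion. The group was set by a list of 45 gene symbols, which was chosen with earlier results of these data known. Each gene was read from its brightest probe set that carried a single symbol. Of the 45 genes, 44 were measured, among 19938 genes in all; Ubap1 was not analysed here. The members were 3 ESCRT-0 genes, 7 of 8 ESCRT-I genes, 3 ESCRT-II genes, 11 ESCRT-III genes, 4 genes for the VPS4 ATPases and ALIX, 4 retromer genes, 8 CORVET and HOPS tether genes and 4 genes for proteins with a FYVE domain. Vps37b was known to stand apart from earlier results on these arrays, so its values describe it and lend no independent support.

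The RNA came from type 1 conventional dendritic cells (cDC1) sorted from inguinal lymph nodes of C57BL/6 mice, 6 days after tumour cells of a kind that mice later reject were injected in the back flank. The 4 groups were cDC1 of Wdfy4 knockout mice (KO) and of heterozygous mice (Het) from the node draining the tumour, and KO and Het cDC1 from the node that does not drain it, with 4 arrays each and 16 in all. All mice carried the tumour, and the Het mice, which served as the comparison, carried a disrupted copy of Wdfy4 as well, so no wild-type or tumour-free cells were among the groups. The labels give neither the deleted part of the gene nor the ages of the mice, and leave unsaid whether each array had its own mouse. The p-values thus measure the spread among arrays, part of which may be technical.

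Proteins marked with ubiquitin on the endosome membrane are captured by ESCRT-0, passed to ESCRT-I and ESCRT-II, and enclosed in inward budding vesicles by filaments of ESCRT-III, which the VPS4 ATPase takes apart. Retromer works in the opposite direction and returns receptors from endosomes to the Golgi or the cell surface, while CORVET and HOPS tether early and late endosomes before they fuse. In dendritic cells these compartments hold captured antigen, and ESCRT-III also mends damaged endosomal membranes, through which antigen can reach the cytosol. WDFY4, the product of the targeted gene, belongs to the BEACH-domain family and is required in cDC1 for cross-presentation of cell-derived antigen on MHC class I.

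Levels are given as deposited intensities, and differences as KO minus Het or draining minus non-draining on the log2(intensity + 1) scale, where 1 is a doubling. They were tested with limma, a linear model fitted over all genes, and p-values were adjusted over all genes by the Benjamini-Hochberg method with a threshold of 0.05. The arrays had median intensities between 38.6 and 40.8. All 15 cDC1 markers, among them Xcr1 and Clec9a, had a mean above the median of all probe sets (5.35 on the log2 scale). So had 10 of 11 T cell, 9 of 11 B cell and 5 of 5 plasmacytoid dendritic cell markers, against 0 of 6 for neutrophils. This measure therefore does not set cDC1 apart from the first 3 of these types. KO draining array 2 stood apart: its mean Pearson correlation with the other arrays was 0.976, against 0.984 to 0.990 for the rest, and 32 of the 44 members lay below their own mean there. Differences given for single genes that rest on this array are given without it as well where that moves them by over 1.5 times or turns their direction. Wdfy4 had intensities of 2181, 2785, 2257 and 1786 in draining KO cells and 3150.1, 3450.0, 2766 and 2463 in draining Het cells. The log2 difference was -0.40 ± 0.18 (SE) with an adjusted p of 1.00 in limma (-0.51 without KO draining array 2), and -0.25 in the non-draining node. Of the 2 probe sets of Wdfy4 only the brighter was read, and a probe set outside the deleted part would not check the labels.

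Most of the endosomal machinery was brighter than the typical probe set in these cells. On the log2(intensity + 1) scale, 43 of the 44 members had a mean above the median of all probe sets. The exception was Chmp4c, an ESCRT-III subunit gene, with an intensity between 16.5 and 27.7 on the 16 arrays, where differences are hard to see. The median SD between arrays of a group was 0.22 over the members and 0.18 over all genes, on the log2 scale. Chmp6, whose product starts ESCRT-III filaments from ESCRT-II, varied least, with a within-group SD of 0.088. Vps33b, whose product acts in late endosome and secretory granule traffic, varied most, with a within-group SD of 0.40 and a range of 1.52 over the 16 arrays. Vps37b had a range of 1.38, Mvb12b of 1.26 and Vps28 of 1.21, against a median range of 0.78 over the members.

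**Figure D1:**
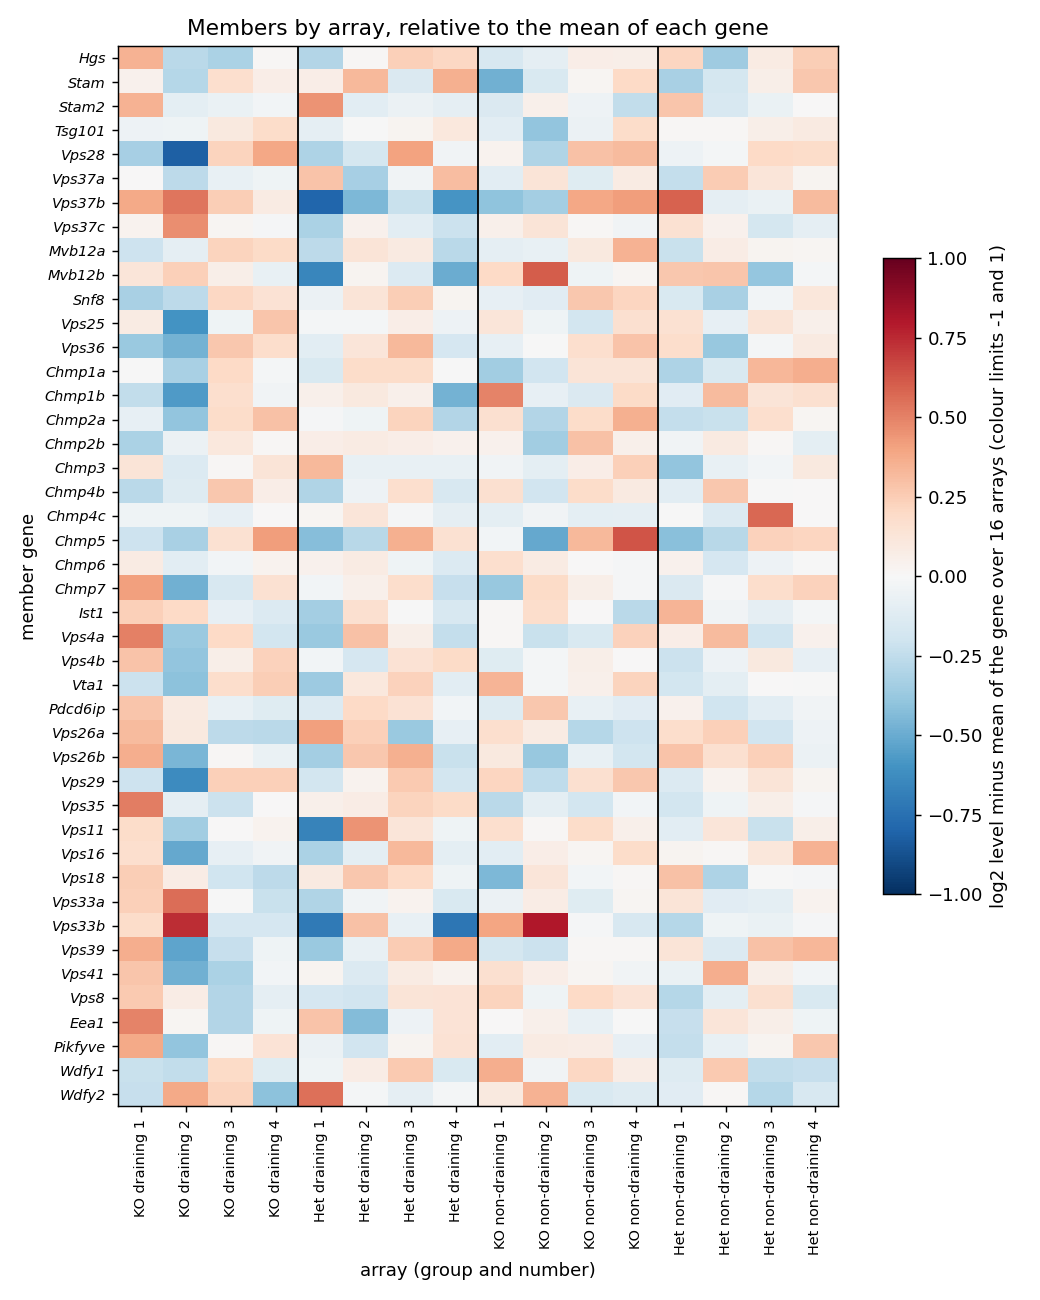
Log2 level of each of the 44 members (rows) on each of the 16 arrays (columns, by group and number), minus the mean of that gene over all arrays; the colour scale runs from -1 to 1. Most rows show no block of colour that follows a group, the Vps37b row is low in all 4 Het draining arrays, and KO draining array 2 has 32 members below their mean.

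ESCRT-I links captured cargo to the rest of the pathway, and Vps37b encodes an alternative subunit of it. Of the 44 members Vps37b had the largest difference between KO and Het cDC1 of the draining node. It had intensities of 287, 321, 262 and 234 in KO cells of the draining node, against 127, 162, 189.8 and 147 in draining Het cells. There the lowest KO array exceeded the highest Het array. The log2 difference was 0.82 ± 0.20 (SE), a fold of 1.77, with a 95% interval of 0.40 to 1.25, and limma gave an unadjusted p of 0.000827 (adjusted p = 1.00), so it did not pass over all genes. Groups that did not overlap with KO above Het were found for 0.838% of all genes and for this 1 of the 44 members (2.27%). Arrays 1 and 2 alone gave 1.08 and arrays 3 and 4 alone 0.57, and the difference was 0.75 without KO draining array 2.

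The differences of its paralogs Vps37c and Vps37a were smaller in size. A single VPS37 protein sits in each ESCRT-I complex, beside TSG101, VPS28 and an MVB12 or UBAP1 protein. Vps37c had intensities of 339, 457, 334 and 328 in draining KO cells and 265, 341, 307 and 285 in draining Het cells. KO draining array 2 held the highest value, and the groups overlapped by the Het value of 341. The log2 difference of Vps37c was 0.27 ± 0.11 (SE, unadjusted p = 0.0291, adjusted p = 1.00 in limma), and it was 0.16 without KO draining array 2 and 0.16 with arrays weighted by quality (unadjusted p = 0.126 and 0.13 in limma). Vps37a had 145, 121, 137 and 140.3 in draining KO cells and 177, 115, 141 and 179.6 in draining Het cells. The KO range lay within the Het range, with a log2 difference of -0.15 ± 0.14 (SE) and a 95% interval of -0.44 to 0.14. With 1 array left out it lay between -0.28 without Het draining array 2 (unadjusted p = 0.042 in limma) and -0.07 without Het draining array 4 or Het draining array 1, and it was -0.10 without KO draining array 2.

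Mvb12b, which encodes an accessory subunit of ESCRT-I, was the remaining member with an unadjusted p under 0.05 in the draining node. Its intensities were 91.1, 99.0, 87.5 and 79.3 in draining KO cells, against 52.8, 85.3, 76.0 and 59.2 in draining Het cells. Het draining arrays 1 and 4 held the lowest values, and Het draining array 2 lay within the KO range. The log2 difference was 0.40 ± 0.18 (SE, unadjusted p = 0.0374, adjusted p = 1.00 in limma), and 0.35 without KO draining array 2 (unadjusted p = 0.0882 in limma). The other ESCRT-I genes, Tsg101, Vps28 and Mvb12a, differed by 0.04 ± 0.10, -0.10 ± 0.22 and 0.11 ± 0.13 (SE), and by 0.07, 0.12 and 0.15 without KO draining array 2, where Vps28 turned its direction. A second, slightly dimmer probe set of Tsg101 gave 0.14 in the draining node, and the probe sets differed in direction in the non-draining node, at 0.09 for the dimmer and -0.14 for the brighter one.

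**Figure D2:**
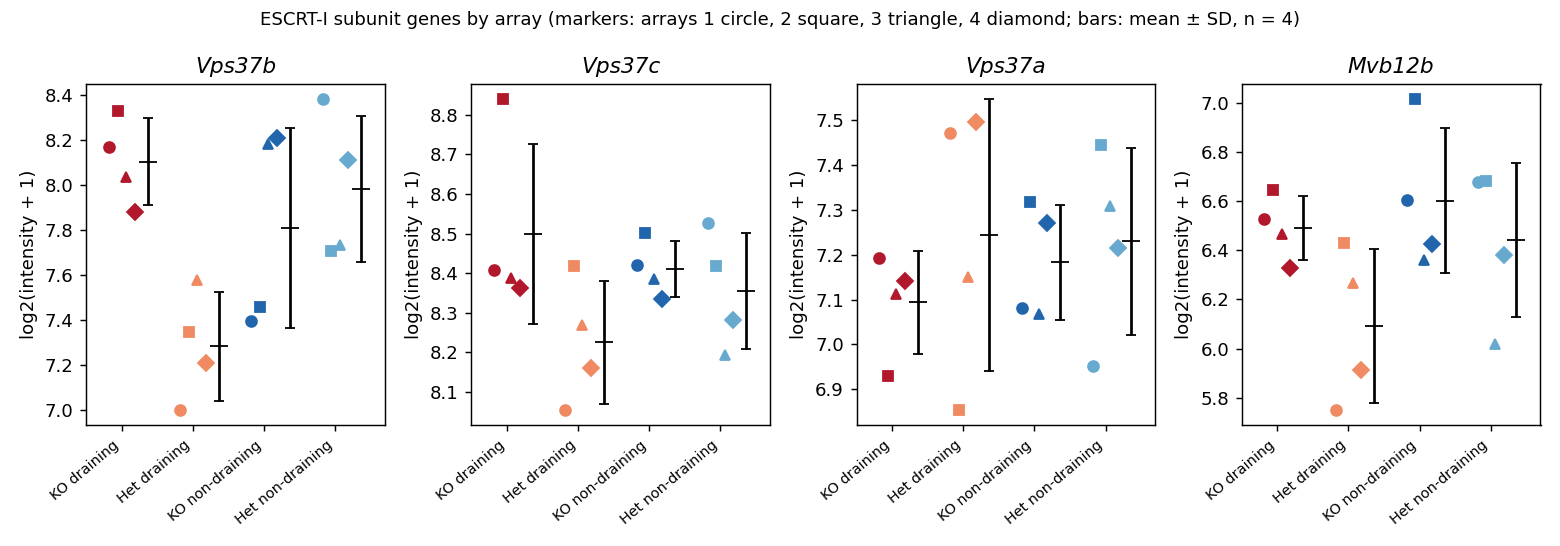
Log2(intensity + 1) of Vps37b, Vps37c, Vps37a and Mvb12b on each array, in KO draining, Het draining, KO non-draining and Het non-draining cells; each marker is 1 array and the bar is the mean ± SD (n = 4). Vps37b alone separates KO from Het in the draining node, with all 4 Het draining arrays below the other draining arrays.

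Over all 44 members, 0 passed an adjusted p of 0.05 in limma for KO against Het within the draining node, where 0% of all genes passed. At an unadjusted p under 0.05 there were 3 members (Vps37b, Vps37c and Mvb12b, all higher in KO), against 3.39% of all genes in either direction and 1.69% with KO higher. This count was 1 without KO draining array 2, without Het draining array 1 or without Het draining array 4, and between 1 and 6 over 31 alternative settings. The members had a median log2 difference of -0.02, with 19 higher and 25 lower in KO, beside a median of 0.00 over all genes. Without KO draining array 2 the median was 0.07, with 28 higher and 16 lower, and 11 members turned their direction, so the split between higher and lower rests on that array. Of the members, 39 differed by less than 0.2 in size.

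The stretches around the starts of Vps37c and Mvb12b are shown, since these and Vps37b were the members with an unadjusted p under 0.05 in the draining node. Neither gene passed over all genes. Each runs from 250 bases before to 50 bases after a start listed by RefSeq (GRCm38.p6), 5′ to 3′, for Vps37c the first of 2 listed starts (chr19:10688485-10688784, plus strand) and for Mvb12b the only one listed (chr2:33887897-33888196, minus strand). Capitals mark matches on either strand to the GC box GGGCGG, the CCAAT box CCAAT, the TATA box TATAAA and the E-box CACGTG, and no matches overlap.
Vps37c: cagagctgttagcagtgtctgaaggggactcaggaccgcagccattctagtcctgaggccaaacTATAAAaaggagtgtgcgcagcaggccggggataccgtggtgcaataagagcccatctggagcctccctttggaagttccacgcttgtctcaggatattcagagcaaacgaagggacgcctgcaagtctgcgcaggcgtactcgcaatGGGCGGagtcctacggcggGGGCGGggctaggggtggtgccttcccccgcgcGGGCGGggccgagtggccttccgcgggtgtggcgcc
Mvb12b: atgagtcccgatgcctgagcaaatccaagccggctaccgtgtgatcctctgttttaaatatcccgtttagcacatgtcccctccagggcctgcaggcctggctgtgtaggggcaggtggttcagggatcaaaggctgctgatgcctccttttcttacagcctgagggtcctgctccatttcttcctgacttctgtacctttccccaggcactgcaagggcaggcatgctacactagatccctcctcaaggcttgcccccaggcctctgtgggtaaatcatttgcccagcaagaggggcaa
The Vps37c stretch held 3 GC boxes and 1 TATA box and had a GC content of 63.0%, while the Mvb12b stretch held none of the 4 motifs and had a GC content of 55.7%. RefSeq stretches were listed for 31 of the 44 members (70.5%). A GC box was found in 61.3% of these and in 35.9% of the stretches of all 27025 listed genes. The median GC content also differed, at 61.3% over the member stretches and 52.7% over those of all listed genes. A CCAAT box was found in 19.4% of the members and 37.9% of all genes, a TATA box in 3.23% and 14.2%, and an E-box in 12.9% and 7.24%. The matches are a description of these letters.

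The other roles gave no member with an unadjusted p under 0.05 between KO and Het cells of the draining node, and roles were not tested against each other. The ESCRT-0 genes, Hgs, Stam and Stam2, which bind ubiquitinated cargo, stood at -0.10 ± 0.16, -0.15 ± 0.16 and -0.01 ± 0.14 (SE), and at -0.02, -0.06 and 0.04 without KO draining array 2. The ESCRT-II genes Snf8, Vps25 and Vps36 lay between -0.14 and -0.06. Without KO draining array 2 they stood at -0.08, 0.11 and -0.02, so Vps25 turned its direction. The 11 ESCRT-III genes lay between -0.13 for Chmp2b and 0.14 for Ist1, with 6 higher and 5 lower in KO. Chmp1a, Chmp1b and Chmp7 turned their direction without KO draining array 2, to 0.01, 0.03 and 0.14, so that split rests on the array. Vps4a, Vps4b, their cofactor gene Vta1 and Pdcd6ip, which encodes the ESCRT adaptor ALIX, lay between -0.02 and 0.10. They stood at 0.24, 0.155, 0.10 and -0.02 without KO draining array 2, so Vta1 turned its direction.

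Retromer and the tethers likewise gave no call in the draining node. The retromer genes Vps26a, Vps26b, Vps29 and Vps35 lay between -0.08 and -0.05. Without KO draining array 2 they stood at -0.12, 0.09, 0.11 and -0.04, so Vps26b and Vps29 turned their direction. Among the CORVET and HOPS genes, 4 were higher and 4 lower in KO, and Vps16 and Vps8 turned their direction without KO draining array 2. Vps33b, which encodes a relative of the HOPS subunit VPS33A, stood at 0.45 ± 0.25 (SE, unadjusted p = 0.0887 in limma) and Vps33a at 0.26 ± 0.13 (SE, unadjusted p = 0.0716 in limma). Without KO draining array 2 these values were 0.25 for Vps33b and 0.12 for Vps33a. Vps18, a shared core subunit gene, stood at -0.17 ± 0.15, and at -0.20 without that array. The FYVE genes Eea1, Pikfyve, Wdfy1 and Wdfy2, whose products bind the lipid phosphatidylinositol 3-phosphate on endosomes, lay between -0.14 and 0.06. Leaving out KO draining array 2 put them at 0.07, 0.19, -0.09 and -0.24. Wdfy1 and Wdfy2 share a name with Wdfy4, but their products lack its BEACH domain.

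**Figure D3:**
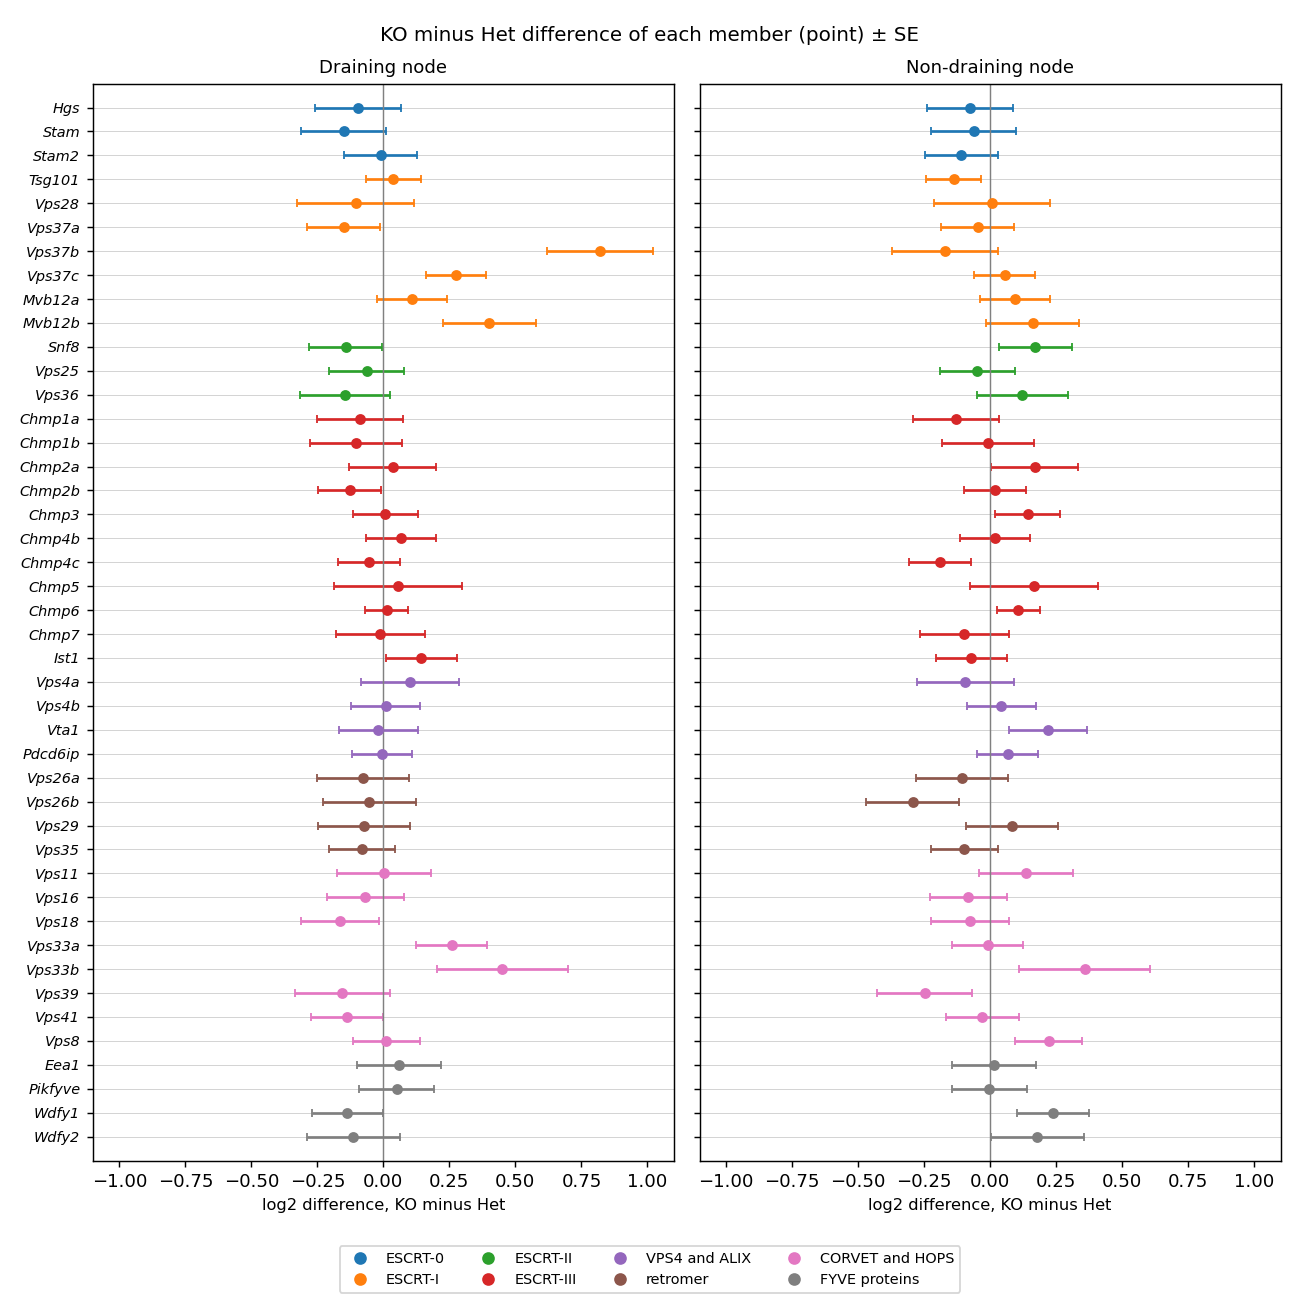
Log2 difference KO minus Het (horizontal axis) of each of the 44 members (rows, coloured by role) in the draining node (left) and the non-draining node (right); points are differences from limma and bars are ± SE. In the draining node Vps37b lies at 0.82 and all but 5 members differ by less than 0.2 in size, while in the non-draining node Vps37b lies at -0.17.

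In the non-draining node no member separated KO from Het cells, while KO lay wholly above Het for 1.2% and wholly below for 1.19% of all genes. Vps37b had intensities of 167, 175, 289 and 295 in non-draining KO cells and 333, 208, 211.5 and 275 in non-draining Het cells. KO arrays 1 and 2 were low and KO arrays 3 and 4 lay within the Het range, so the groups overlapped. The log2 difference was -0.17 ± 0.20 (SE), with a 95% interval of -0.60 to 0.25. For arrays 1 and 2 alone it was -0.62, against 0.27 within arrays 3 and 4, with opposite directions in these sets. Single arrays also moved it, to between -0.30 without KO non-draining array 4 and -0.03 without KO non-draining array 1.

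For KO against Het within the non-draining node, 0 members passed over all genes in limma, where 0% of all genes passed, and 0 had an unadjusted p under 0.05, beside 2.48% of all genes. That count was 0 in 23 of 31 alternative settings and at most 4. The members had a median difference of 0.00, with 22 higher and 22 lower in KO. The differences lay between -0.29 ± 0.18 for the retromer gene Vps26b and 0.36 ± 0.25 for Vps33b (SE). Wdfy1 stood at 0.24 ± 0.14 in this node, and the CORVET gene Vps8 at 0.22 ± 0.13.

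Draining and non-draining Het cells differed most, among the members, in the same ESCRT-I gene. The Vps37b intensities of Het cells listed above put every draining array, from 127 to 189.8, below every non-draining array, from 208 to 333. The log2 difference was -0.70 ± 0.20 (SE), with a 95% interval of -1.12 to -0.27, and limma gave an unadjusted p of 0.00302 (adjusted p = 1.00). Arrays 1 and 2 alone gave -0.87, and arrays 3 and 4 alone -0.53. Groups with draining below non-draining and no overlap were found for 0.998% of all genes. This comparison shares the 4 Het draining arrays with that of KO against Het within the draining node, so the differences in both rest on the same low values.

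Between the nodes in Het cells, 0 members passed in limma, where 0% of all genes passed, and 1 had an unadjusted p under 0.05, beside 3.29% of all genes. Mvb12b stood next, at -0.35 ± 0.18 (SE). Of the 7 ESCRT-I genes, 6 were lower in the draining node, with a median difference of -0.11. Over the 44 members 21 were higher and 23 lower, with a median of 0.00, and 40 differed by less than 0.2 in size. Wdfy2 had the highest value, at 0.24 ± 0.18.

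In KO cells the draining node did not show the low Vps37b values. With intensities of 234 to 321 in the draining and 167 to 295 in the non-draining node, the log2 difference was 0.29 ± 0.20 (SE), and the groups overlapped. Arrays 1 and 2 alone gave 0.82, and arrays 3 and 4 alone -0.24. It was 0.15 without KO non-draining array 1 and 0.22 without KO draining array 2. Between the nodes in KO cells, 0 members passed in limma, where 0% of all genes passed, and 0 had an unadjusted p under 0.05, beside 2.11% of all genes. The lowest difference was that of the ESCRT-III gene Chmp1b, at -0.28 ± 0.17, and at -0.15 without KO draining array 2.

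**Figure D4:**
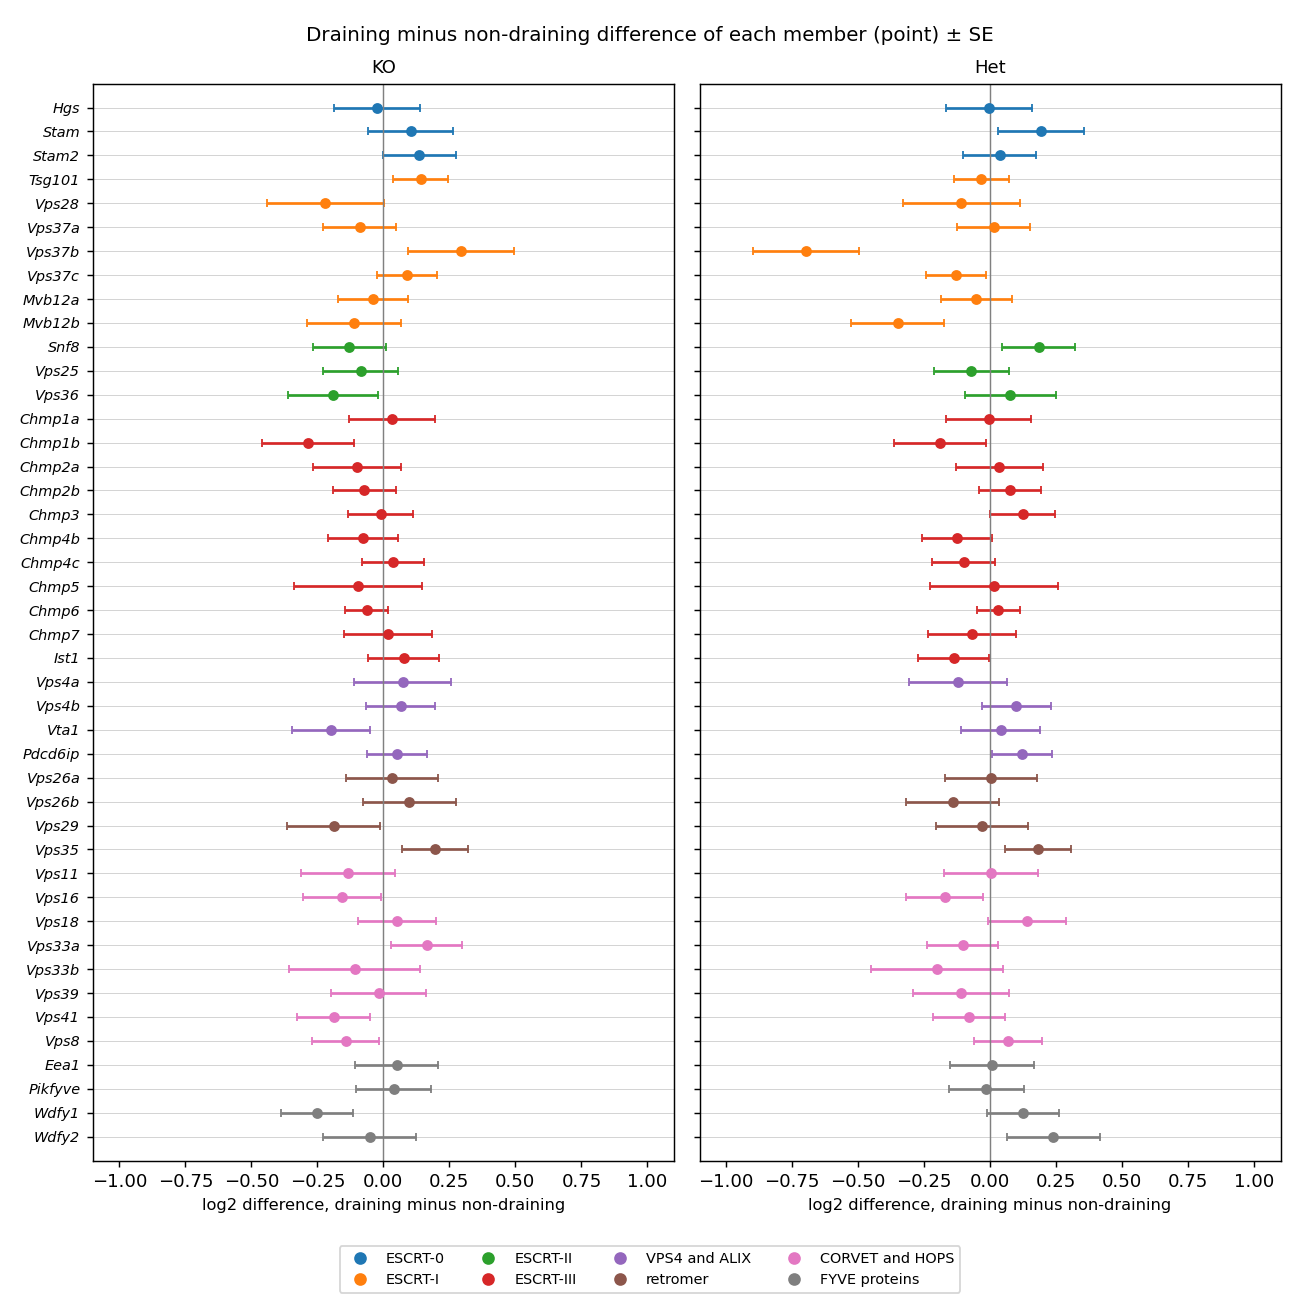
Log2 difference draining minus non-draining (horizontal axis) of each of the 44 members (rows, coloured by role) in KO (left) and Het (right) cells; points are differences from limma and bars are ± SE. Vps37b lies at 0.29 in KO and at -0.70 in Het cells, and the largest size among the other members is 0.28 in KO and 0.35 in Het cells.

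The interaction asks whether the node difference was the same in KO and Het cells. For Vps37b it was 0.99 ± 0.28 on the log2 scale (SE), with a 95% interval of 0.39 to 1.59, and limma gave an unadjusted p of 0.00293 (adjusted p = 1.00). It was 1.69 within arrays 1 and 2 but 0.29 within arrays 3 and 4 (unadjusted p = 0.221 in limma). It was 0.92 without KO draining array 2. Wdfy1 stood at the other end, at -0.38 ± 0.19 (SE, unadjusted p = 0.0665 in limma). Of the members, 0 passed in limma, where 0% of all genes passed, and 1 had an unadjusted p under 0.05, beside 2.32% of all genes.

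Over both nodes, 3 members had an unadjusted p under 0.05 for KO against Het, all with KO higher, beside 3.49% of all genes and 1.75% with KO higher. They were Vps33b, Vps37b and Mvb12b, and 0 members passed in limma, where 0% of all genes passed. This count was 0 without KO draining array 2 and also without Het draining array 4. Vps33b had 119, 175, 92.8 and 93.1 in draining KO cells and 63.6, 128, 99.2 and 62.9 in draining Het cells. In the non-draining node it had 137, 183, 104 and 93.4 in KO and 85.6, 101, 99.9 and 103 in Het cells. KO array 2 held the highest value in each node, and the groups overlapped in both. The log2 difference of Vps33b over both nodes was 0.40 ± 0.18 (SE, unadjusted p = 0.035, adjusted p = 1.00 in limma), but arrays 1 and 2 alone gave 0.72 and arrays 3 and 4 alone 0.09. Mvb12b stood at 0.28 ± 0.13 over both nodes, and at 0.31 and 0.25 within these sets of arrays. Vps37b stood at 0.32 ± 0.14. Without KO draining array 2 the values were 0.31 for Vps33b, 0.26 for Mvb12b and 0.29 for Vps37b.

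Over both genotypes, the retromer gene Vps35, which encodes the scaffold of the complex, was the 1 member with an unadjusted p under 0.05 between nodes, beside 3.06% of all genes. Its intensities were 561, 369.8, 338 and 393 in draining and 326, 368, 346 and 385 in non-draining KO cells. In Het cells they were 408, 413, 459 and 449 in the draining and 345, 382, 409 and 389 in the non-draining node. The groups overlapped in both genotypes. The log2 difference was 0.19 ± 0.09 (SE, unadjusted p = 0.0487, adjusted p = 1.00 in limma) and was 0.11 without KO draining array 1 and 0.21 without KO draining array 2. Of the members, 0 passed in limma, where 0% of all genes passed.

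The wider pathway gave no call either. Of 63 further genes, for ESCRT-linked enzymes, partners of retromer, other tethers, and phosphoinositide enzymes and FYVE proteins, 0 passed in limma in any of the 7 comparisons. For KO against Het within the draining node 2 of the 63 had an unadjusted p under 0.05, beside 3.39% of all genes. Vps50 stood at -0.33 ± 0.15 (SE) and Vps54 at 0.25 ± 0.12, and both encode subunits of tethers for vesicles that return from endosomes. Without KO draining array 2, Vps50 stood at -0.21 and Vps54 at 0.23 (unadjusted p = 0.173 and 0.0907 in limma). Between the nodes in KO cells Vps54 stood at 0.31 ± 0.12 (unadjusted p = 0.0165 in limma), with 0.52 for arrays 1 and 2 alone, 0.09 for arrays 3 and 4 alone and 0.28 without KO draining array 2. Pik3c3, which encodes the kinase that makes phosphatidylinositol 3-phosphate, stood at 0.16 ± 0.06 between the nodes over both genotypes (unadjusted p = 0.0195 in limma). The median difference of the 63 genes for KO against Het was -0.03 in the draining node, and 0.03 in the non-draining node. In the draining node 28 were higher and 35 lower in KO. Without KO draining array 2 more of the 63 were higher than lower, so the sign of that median rests on the array.

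T cell markers were also measured in the sorted samples. Of 13 listed T cell markers 11 were measured, and 10 of them had a mean above the median of all probe sets, with Cd3g at 8.86 on the log2 scale. In bulk samples, fewer cells of a type and less RNA per cell cannot be told apart. The mean of the 11 markers lay between 6.90 and 7.65 in draining KO cells and between 6.68 and 7.43 in draining Het cells, and between 6.35 and 7.54 in non-draining KO cells and 6.75 and 7.65 in non-draining Het cells. All 11 were higher in KO in the draining node, with a median difference of 0.27, and all 11 were lower in draining than in non-draining Het cells, with a median of -0.41. In the non-draining node 0 of 11 were higher in KO, with a median of -0.37, and 10 of 11 were higher in draining than in non-draining KO cells, with a median of 0.24. Over both nodes 3 of 11 were higher in KO, with a median of -0.08. None of the markers passed over all genes. In these comparisons, in the order given, Vps37b stood at 0.82, -0.70, -0.17, 0.29 and 0.32. Over the 16 arrays the Pearson correlation of Vps37b with the T cell marker mean was 0.65, as a description of arrays that share groups and normalization.

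With the T cell marker mean as a covariate, a setting chosen after seeing the data, the Vps37b difference between KO and Het was 0.68 in the draining node (unadjusted p = 0.000459, adjusted p = 0.898 in limma), beside 0.82 without it. The Het node difference was then -0.50, beside -0.70, and the interaction 0.65, beside 0.99. The marker mean came from the same 16 arrays, so this fit does not measure the part of T cell RNA in the Vps37b difference. That part was not tested. Immediate early genes, which cells induce within minutes of a stimulus, had list means from 9.59 to 9.85 in draining KO cells and 9.15 to 9.62 in draining Het cells. In the non-draining node the means ran from 9.62 to 9.86 in KO and 9.27 to 9.56 in Het cells. Over the 16 arrays the Pearson correlation of Vps37b with the immediate early mean was 0.28. The part of immediate early genes in the Vps37b difference was not tested.

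**Figure D5:**
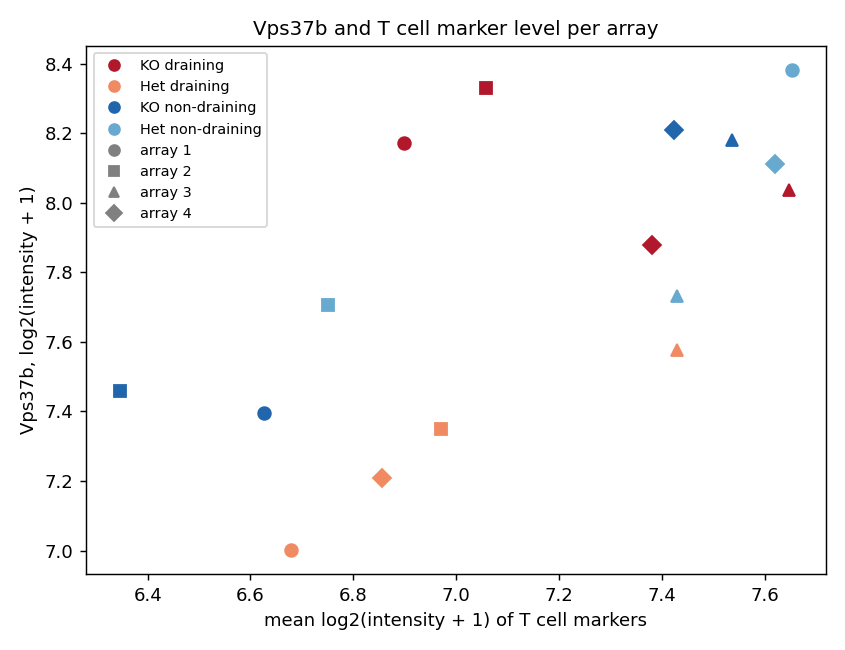
Vps37b level (vertical axis, log2(intensity + 1)) against the mean log2(intensity + 1) of 11 T cell markers (horizontal axis) on each of the 16 arrays, with colours for groups and shapes for array numbers. Arrays with a high marker mean tend to have a high Vps37b level (r = 0.65), and marker means run from 6.90 to 7.65 in KO draining and from 6.68 to 7.43 in Het draining cells.

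The genes whose pattern over the 16 arrays was most like that of Vps37b were Galnt6, Emb, Txk, Foxn4, Arid5a, Npas1, Dusp5 and S1pr1, in that order. Their Pearson correlations with Vps37b ran from 0.88 for Galnt6 to 0.79 for S1pr1, as a description of these arrays, which share groups and normalization. After each group's mean was taken away, the correlations ran from 0.64 for Dusp5 to 0.91 for Galnt6. Txk, which encodes a kinase of T cells, had a mean log2 level of 6.67 in draining KO cells and 5.94 in draining Het cells, and 6.52 in non-draining KO cells and 6.44 in non-draining Het cells. Emb, which encodes the adhesion protein embigin, stood at 7.96 and 7.14 in KO and Het cells of the draining node.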

How the data were processed

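RNA from sorted cDC1 was labelled with biotin and measured on 16 single-channel Affymetrix arrays, and groups and numbers were taken from the sample titles. The deposited values are linear-scale intensities, and the submitters' processing notes name RMA (background correction, quantile normalization and probe summary) with no software or version. RMA gives the arrays like distributions and pulls dim probe sets toward a floor, so a general shift in expression is lost and differences of dim genes are understated.

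Of 35556 probe sets, 21789 carried 1 gene symbol, 1621 several and 12146 none in the platform annotation. Symbols were checked by gene ID against a RefSeq table (GRCm38.p6), where 21698 matched and 0 changed. A gene was read from its brightest probe set, which gave 19938 genes, and Tsg101 and Vps4b were the members with more than 1 probe set. Values were tested as log2(intensity + 1), by limma 3.58.1 (R 4.3.3, two-sided), where all 4 groups shared 1 fit with 12 residual degrees of freedom and a prior of 4.35. Each of 7 comparisons had its p-values adjusted over all genes by Benjamini-Hochberg, at a threshold of 0.05. Scripts were tested on simulated data. No slide or scan batch is given, and the number of arrays limits the precision.

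The members, the lists and the array sets 1 to 2 and 3 to 4 were chosen with earlier results of these data known. All members were described, those with an unadjusted p under 0.05 in a comparison with full values (at most 6 per comparison), and Vps37b in every comparison. Deviations of same-numbered arrays from their group means correlated between -0.06 and 0.48. All 4 pairs exceeded 0.1 between the nodes in Het mice (0.20 to 0.31), and not all did in the other 3 pairings. The main fit paired no arrays, in Het or KO cells. A block by number, or by genotype and number, was used only among the alternatives. No members' call changed with the block. Alternatives changed the value added before the log, the filter, the probe set rule, the normalization, the variance model, the block and the arrays included. Figures used matplotlib 3.10.9 (Python 3.11.15).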

Additional observations from a re-analysis of the deposited data

Results flagged for a closer look

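Over 44 members and Wdfy4, 180 groups of 4 arrays were looked at for an array far from the others, by Dixon's test at the 95% level, and 9 groups held such an array. Chance gives about 1 in 20 groups. On the log2 scale, Het draining array 1 was high for Stam2 (8.51, the others from 7.96 to 8.01), Chmp3 (7.29, the others from 6.89 to 6.89) and Wdfy2 (7.31, the others from 6.67 to 6.74). KO draining array 1 was high for Stam2 (8.41, the others from 7.97 to 8.04), and KO draining array 2 for Vps37c (8.84, the others from 8.36 to 8.41). Het draining array 4 was low for Chmp1b (7.48, the others at most 8.06). Het non-draining array 1 was high for Ist1 (9.54, the others from 9.11 to 9.18). KO non-draining array 2 was high for Pdcd6ip (9.67, the others from 9.28 to 9.33) and for Chmp4c (4.23, the others from 4.16 to 4.17), a gene of low signal. Of these genes only Vps37c had an unadjusted p under 0.05 in any of the 7 comparisons, and its value without KO draining array 2 is given above.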

How the results depend on the processing

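The number of members past the threshold stayed at 0 in all 7 comparisons under each of up to 31 alternatives, with every array left out in turn included. With a replicate block, fixed by array number or random by genotype and number, it was 0 as well, and the Vps37b difference between KO and Het in the draining node kept its value of 0.82 (adjusted p = 0.792 and 1.00 in limma). Over its alternatives that difference lay between 0.57 and 1.08, with adjusted p from 0.464 to 1.00. The number of members with an unadjusted p under 0.05 lay between 1 and 6 for KO against Het within the draining node (3 as reported), 0 and 4 in the non-draining node (0) and 0 and 6 over both (3). Between the nodes it lay between 0 and 3 in KO cells (0), 1 and 4 in Het cells (1) and 0 and 3 over both genotypes (1), and for the interaction between 1 and 3 (1). Of 19 differences of named genes, 17 kept their direction throughout. The exceptions were Vps37b for KO against Het in the non-draining node, at 0.27 within arrays 3 and 4 and 0.028 with the T cell marker mean as a covariate (added after seeing the data), and Vps37b between the nodes in KO cells, at -0.24 within arrays 3 and 4; the cause was not tested. Among all genes, 0 were called except within arrays 3 and 4, with 4, 2, 1 and 5 for KO against Het in the draining and non-draining node, the nodes in KO cells and KO against Het over both nodes, and except for 1 gene in that last comparison with the number as a block. The median over members moved by less than the SD between arrays (0.10) in every setting. Without KO draining array 2 the signs of 11 of 44 members turned for KO against Het within the draining node. The number of arrays limits what can be seen for small differences, and low signal does so for Chmp4c.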
